A study of Mus musculus with 5 samples.

Results

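The loci described here are the transcribed regions that carried no gene symbol in the deposited expression tables, 37277 of 61082 loci in all. They were chosen by that blank alone, not by any measured value, and joined over the tables by their locus number. The other loci were 22894 with a single gene symbol, called single-gene loci below, and 911 that joined several genes.

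When RNA reads are assembled into transcripts, every stretch of genome with reads can become a locus, whether or not an annotated gene lies there. Loci that match no gene can hold long noncoding RNAs, short-lived RNAs made at enhancers, ends of genes that run past their annotated limits, unspliced or antisense RNA, copies of repeats and pseudogenes. They can also hold stray fragments of RNA or DNA that carry no defined transcript. In fibroblasts, as in most cells, well-studied noncoding RNAs such as Malat1 and Tug1 are abundant, while most other transcripts outside genes are scarce.

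RNA-seq was run on total RNA of 5 cultures of mouse embryonic fibroblasts (MEFs), connective-tissue cells grown from embryos, of strain C57BL/6 at passage 30. The labels give 4 cultures as Prep1-hypomorphic, with an allele of reduced Prep1 expression. These had received an empty vector (EV), Meis1 (M), Prep1 (P), or Meis1 and Prep1 together (MP). The fifth was Prep1 wild-type (WT) with no added factor named. The growth protocol in the labels names E14.5 embryos of the hypomorphic genotype for all 5 cultures, WT included, which conflicts with the WT genotype label; that label was used. Meis1 and Prep1, the product of Pknox1, are homeodomain transcription factors of the TALE class. The sources used here do not say whether a line was 1 clone or which promoter drove an added factor. Each group held 1 library, so differences below rest on 1 culture against 1, carry no test, and hold for these libraries only. In such bulk samples, fewer cells of a type and less RNA per cell cannot be told apart.

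Levels are in scaled units: FPKM (fragments per kilobase of transcript, relative to the fragments mapped) after each library was scaled so that the upper quartile of its single-gene loci was 10. Before scaling that quartile was far higher in EV (157 FPKM) and M (429) than in the libraries labelled P (11.6) and MP (9.63) or in WT (12.2). Read depth is unknown. Meis1 had 8.32 scaled units in EV, 8.86 in P and 12.4 in WT, and 16.8 and 15.4 where it was added (M and MP), which follows the labels. Pknox1 had 2.16 in EV, 3.25 in M and 11.0 in WT, but 0.554 and 0.569 where Prep1 was added (P and MP), which goes against the labels P and MP. Those are therefore called the libraries labelled P and labelled MP, and each direction drawn from them carries that limit. Of 11 fibroblast markers found, 10 were at 5 or more in P, MP and WT. No listed epithelial, endothelial, leukocyte, pluripotent or muscle marker was, and of the neuronal markers Tubb3 was.

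The loci without a symbol were not spread evenly through the numbering of the tables. Locus numbers followed the genome: of consecutive single-gene loci that RefSeq places on the same chromosome and strand, 97.6% stood in ascending order of position. Within this order 32914 loci without a symbol (88.3%) lay in 41 unbroken runs of at least 100, with a median of 656 and up to 3714 loci in a run. The other 4363 lay in 2789 shorter runs, most of them a single locus, interspersed among genes. The first kind is called loci in long runs and the second loci between named loci. The division was drawn after the numbering was seen, without use of expression values. Between named loci, 2595 of 4363 (59.5%) had flanking single-gene loci on the same chromosome and strand in ascending order, and for these the flanking genes are named below.

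Nearly every locus without a symbol was listed above 0 in EV, but fewer were in the libraries labelled P and MP and in WT. The share above 0 was 99.5% in EV, 87.6% in M, 41.0% in the library labelled P, 37.5% in that labelled MP and 42.7% in WT. Among single-gene loci the shares were 97.6%, 90.7%, 76.1%, 73.3% and 78.4%. The gap came from the long runs, where all but 3 of 32914 loci were above 0 in EV, 87.0% in M, and 36.1%, 32.4% and 37.8% in the libraries labelled P, labelled MP and WT. Between named loci the 5 shares were 95.7%, 91.6%, 78.2%, 75.8% and 80.0%, within 3 percentage points of those of single-gene loci in each library.

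**Figure D1:**
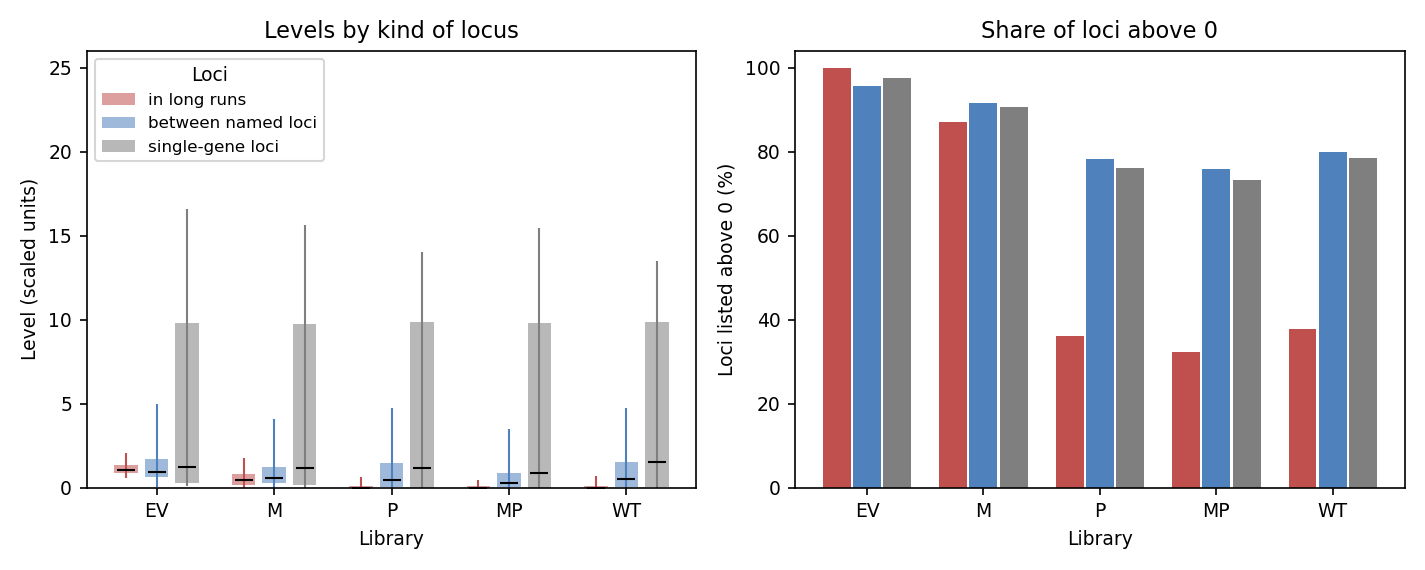
Level in scaled units (left) and share of loci listed above 0 (right) in each library, for loci without a symbol in long runs (32914), those between named loci (4363) and single-gene loci (22894). On the left, boxes span the middle quartiles, black dashes are medians and lines run from the 5th to the 95th percentile of loci. In P, MP and WT the median of the long runs is 0, while 75.8% to 80.0% of the loci between named loci are above 0.

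Most of these loci were faint. The median over all of them was 1.05 scaled units in EV and 0.471 in M, and 0 in the other 3 libraries. In long runs the middle of the distribution was narrow in EV, with quartiles at 0.857 and 1.33 units, and the library labelled P had its 95th percentile at 0.634. Between named loci the medians were 0.952 and 0.588 in EV and M, 0.479 and 0.300 in the libraries labelled P and MP, and 0.537 in WT. Single-gene loci had medians between 0.863 and 1.52. A level of 5 or more was reached by 391 and 258 loci without a symbol in EV and M, by 312 and 186 in the libraries labelled P and MP and by 327 in WT, from 0.499% to 1.05% of them, against 36.4% to 39.8% of single-gene loci.

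The libraries fell into EV and M on one side and P, MP and WT on the other, by which of these loci had signal. In P, MP and WT together, 16691 loci without a symbol (44.8%) were listed at 0, and 13091 of those were above 0 in both EV and M. Another 10518 loci without a symbol (28.2%) were above 0 in all 3 of P, MP and WT, and 10469 in all 5. Above 0 in all 3 were 44.6% of all loci and 69.5% of single-gene loci. Only 139 loci without a symbol (0.373%) were listed at 0 in all 5 libraries, and all 139 lay between named loci. Of all loci 0.979% were, and of single-gene loci 1.98%.

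The ranking of loci by level was closest among P, MP and WT. Across the 32914 loci in long runs, Spearman's rho was 0.74 between P and WT, 0.70 between P and MP and 0.65 between MP and WT. It was 0.20 between EV and M, from -0.18 to -0.14 between EV and those 3, and from 0.04 to 0.10 between M and those 3. Across the 4363 loci between named loci it was 0.93 for P and MP, 0.89 for P and WT and 0.85 for MP and WT. There EV and M, at 0.76, were hardly closer than M and MP (0.75) or M and P (0.71), and EV and P had 0.66. Across single-gene loci no pair of libraries was below 0.89, and EV and M were no closer than EV and MP (0.935 for both). These values describe loci that share a library, its depth and many zeros, and have no p-value.

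Loci in long runs often held the same deposited number to the last digit. Of those above 0, 42.6% in M shared their exact FPKM with at least 1 other long-run locus, with up to 16 loci at one value. The share was 18.0% in EV, 25.1% in WT, and 22.1% and 33.0% in the libraries labelled P and MP. Between named loci it was 0.293% to 0.910%, and among single-gene loci 1.80% to 4.25%.

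Loci well above 0 where most others were at 0 were rare. At 5 scaled units or more in each of P, MP and WT stood 155 loci without a symbol, 0.416% of them, against 34.9% of single-gene loci. Over both kinds together the share was 13.5%. Of the 155, 102 lay between named loci and 53 in long runs, which is 2.34% and 0.161% of the loci of those kinds. Nearly all were high in EV and M too: 141 reached 5 in all 5 libraries. Their median levels lay between 8.72 (labelled P) and 9.85 (EV). The 2 loci just inside the limit were XLOC_020777, whose lowest of the 3 levels was 5.03 in WT, and XLOC_028533, at 5.03 in P. Just outside it were XLOC_050452, at 4.98 in WT, and XLOC_040775, at 4.98 in MP.

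The 102 well-expressed loci between named loci had median ratios near 0. Their median log2 ratio was 0.02 for M against EV, 0.10 for the library labelled MP against that labelled P and -0.02 for WT against the library labelled P. At least 2-fold apart were 2 (1.96%), 1 (0.980%) and 0 of the 102 in these comparisons. Over the 7991 single-gene loci that met the same limit the medians were -0.02, 0.08 and -0.06, with 5, 11 and 20 loci 2-fold apart. In the first 2 comparisons those are smaller shares than among the 102. The genes were not matched in level beyond that limit.

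Highest among them by the lowest of its P, MP and WT levels was XLOC_029983, numbered between the pseudogene Olfr1273-ps and Ptprj, a receptor tyrosine phosphatase gene. It stood at 27.7, 19.6, 19.7, 30.0 and 20.6, in the order of EV, M, labelled P, labelled MP and WT. XLOC_000057, between Rab23, a small GTPase gene of hedgehog signalling, and Imp4, a gene of ribosomal RNA processing, stood at 20.8, 21.3, 17.5, 20.5 and 18.1 in the same order. Both loci differed by less than 2-fold over the 5 libraries. XLOC_005896, between Sgcd, a sarcoglycan gene, and Trim41, stood at 23.0, 23.4 and 23.5 in EV, M and MP, against 15.6 and 14.7 in P and WT. Its EV, M and MP levels thus lay together above those of P and WT. XLOC_049966, between Trappc5 and Cd209g, was more even, from 13.6 in P to 17.5 in MP.

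These levels reach those of the best known noncoding RNA genes of the same tables. Of 20 such genes listed, 13 were found as single-gene loci, and 4 of them stood at 5 or more in each of P, MP and WT. Tug1, a nuclear noncoding RNA, stood between 14.1 in WT and 17.8 in MP. Malat1, an abundant RNA of nuclear speckles, stood between 5.95 in WT and 11.1 in EV. Pvt1, a noncoding RNA gene next to Myc, stood between 11.2 and 14.1, and Hotair, transcribed from the HoxC cluster, at 0.431 in EV, 0.465 in M and 0 in the other 3. XLOC_029983 thus had a higher level than Tug1 in each of the 5 libraries.

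A small set of long-run loci had levels far above any gene. At 100 scaled units or more in at least 1 library stood 29 loci without a symbol, and all 29 lay in long runs. The highest single-gene locus of a library reached between 43.9 (WT) and 74.7 (M). In WT 26 of the 29 stood at 100 or more, in EV 27, and in the library labelled MP 15. Only 13 did so in all 5 libraries. As shares of the summed FPKM of all loci without a symbol, the 10 highest held 34.0% and 45.2% in EV and M, 68.5% and 77.2% in the libraries labelled P and MP, and 85.9% in WT.

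The summed FPKM outside named genes leaned on few loci, most of all in WT. Loci without a symbol held 64.8% of the summed FPKM in WT, against 39.2% in EV, 29.4% in M, and 33.1% and 24.5% in the libraries labelled P and MP. The 2 highest loci in WT, XLOC_053759 and XLOC_038679, made up 64.9% of the WT sum of these loci. Without those 2 the WT share was 39.2%. The loci at 100 or more in a given library held 44.2% of its sum over loci without a symbol in EV and 50.1% in M, against 82.4%, 80.7% and 95.2% in P, MP and WT.

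Several of the 29 were high and even over the 5 libraries. In the order of EV, M, labelled P, labelled MP and WT, XLOC_059352 stood at 5325, 4329, 6254, 5963 and 7082. XLOC_016491 stood at 2282, 3408, 3531, 2668 and 2923 in that order. Within a 3-fold range over the 5 libraries lay 9 of the 29, among them these. XLOC_030816 was highest in WT, at 9021, and lowest in M, at 2895, with EV, P and MP between at 5015, 5624 and 7161. XLOC_051720 stood between 2824 (P) and 5626 (WT), XLOC_059982 between 1962 (MP) and 3577 (WT), and XLOC_021406 between 1152 (EV) and 3001 (WT). Wider ranges were seen at XLOC_038680, from 103 in M to 4348 in WT, and XLOC_046480, from 603 in MP to 3994 in P.

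Others changed by orders of magnitude or dropped out. Of the 29, 9 were listed at 0 in at least 1 library, and all 9 were listed at 0 in the library labelled MP. XLOC_034213 was at 0 in MP alone and stood at 2348 and 3106 in EV and M, and at 4120 and 4481 in P and WT. XLOC_015850 was likewise at 0 in MP alone, with 2373, 522, 1819 and 2367 in the other 4. XLOC_038679 stood at 1159 in EV and 52573 in WT and was listed at 0 in the 3 libraries between them. XLOC_053759 stood at 88986 in WT, the highest level of any locus, and was listed at 0 in the other 4. Highest in WT were 16 of the 29, and highest in MP none.

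**Figure D2:**
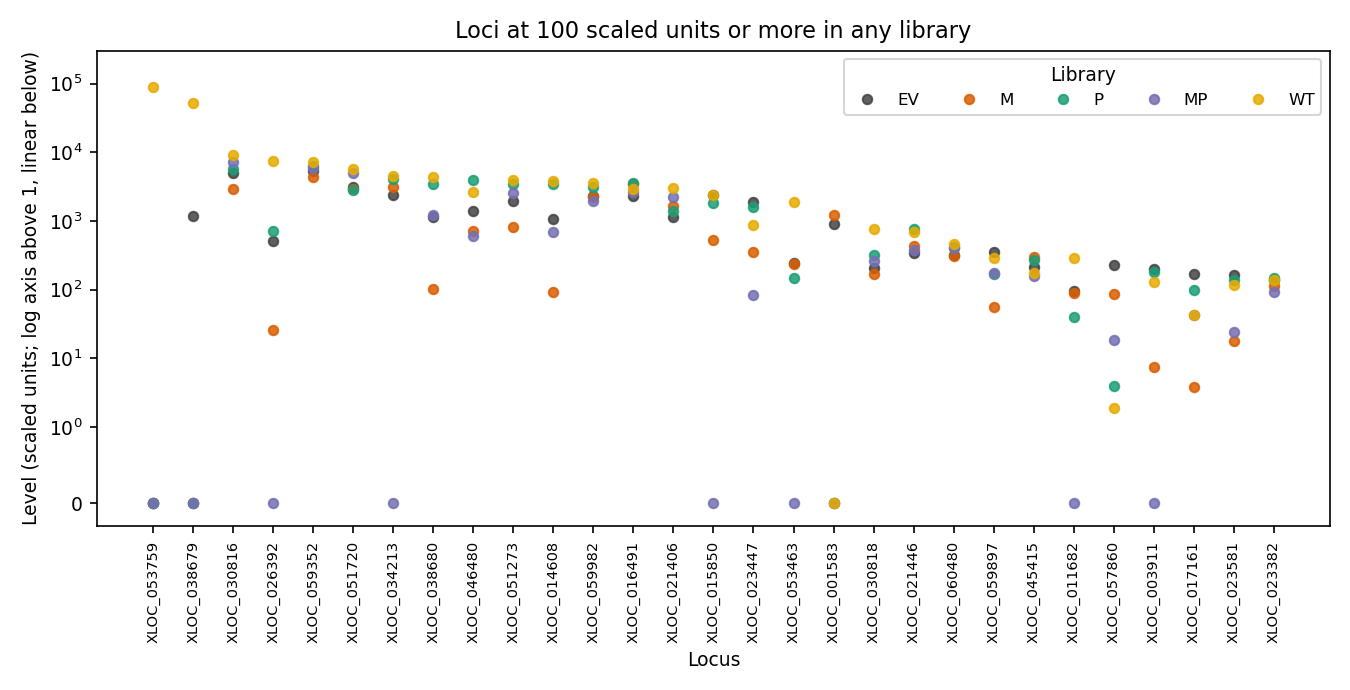
Level in scaled units (log axis above 1, linear below) of the 29 loci without a symbol at 100 or more in any library, ordered by their highest level, with a point for each of the 5 libraries. Points at the bottom are listed at 0. All 9 loci with such a point have one for MP, and XLOC_053759 has a value above 0 in WT alone.

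Equal values appeared here as well. XLOC_051273 and XLOC_014608 both stood at exactly 3418 in P, although they lie in different runs. Elsewhere they differed, with 1970 and 1066 in EV, 808 and 92.0 in M, 2531 and 696 in MP, 3943 and 3780 in WT. The second locus thus had its lowest level in M, and the first did too.

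Loci that reached 5 in any library were also compared by their range over the 5 libraries. Loci whose other levels are low enter such a set through the library where they are high, so a wide range is partly built in for faint kinds of locus, and the values are a description. The highest level plus 1 over the lowest plus 1 was at least 2 at 331 of 559 loci without a symbol (59.2%), and at 1020 of 9606 single-gene loci (10.6%). The median of that ratio was 2.40 and 1.31. At least 1 library listed 0 at 15.9% of the former and 0.250% of the latter.

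The comparisons that follow count a locus as 2-fold apart where log2((level + 1)/(level + 1)) was at least 1 in size, among loci at 1 or more in 1 of the 2 libraries. This scale understates changes of faint loci. All 4 comparisons with EV share the EV library. M against EV had 48 loci without a symbol 2-fold higher and 4726 lower, of 22505. Over all loci 0.245% were higher and 13.6% lower, and over single-gene loci 0.295% and 0.731%. Values as deposited, without scaling, gave 10245 higher and 7986 lower, beside a higher level of the whole M library. The library labelled P had 14 higher and 16092 lower than EV, of 21194, beside 0.281% and 47.8% of all loci. That labelled MP had 2 and 16143 of 21022, beside 0.0826% and 48.5%. WT had 108 and 16005 of 21470, beside 2.57% and 47% of all loci. Most lower loci lay in long runs, where the EV median was 1.06. There 82.6% of the loci kept were 2-fold lower in the library labelled P, and between named loci 17.8%. The 19014 long-run loci kept entered mainly through EV, with 18907 at 1 or more there and 909 in P. A lower level in P is thus partly built in, and these shares are a description.

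A stricter floor of 5 in 1 of the 2 libraries left far fewer loci. Then 10 loci without a symbol were higher and 113 lower in M than EV, of 431. The library labelled P had 11 higher and 108 lower of 465, that labelled MP 2 and 162 of 404, and WT 40 and 114 of 491. Of single-gene loci, 0.173% were higher and 0.288% lower in M, and 5.35% and 1.85% in WT. In the libraries labelled P and MP they were 0.488% and 0.680%, and 0.104% and 0.743%. Over all loci the shares were 0.275% and 1.40% in M, and 0.550% and 1.69% in P. They were 0.113% and 2.38% in MP, and 5.25% and 2.80% in WT. Of loci without a symbol, 8.15% were higher in WT. XLOC_014604, in a long run, was among the 3 highest in the libraries labelled P and MP against EV, with 8.93 and 5.26 in them, 3.98 in WT, and 1.73 and 0.0465 in EV and M. XLOC_033070 was among the 3 lowest in WT against EV, with 43.5 and 30.5 in EV and M, 1.16 in P and 0 in MP and WT. Lower levels than in EV were thus more frequent at loci without a symbol than at genes in each of these comparisons. Loci could enter through EV alone, which favours lower levels elsewhere, so this is a description.

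P, MP and WT, where fewer of these loci were above 0, were also set against each other. The library labelled MP against that labelled P, which differ by label in added Meis1, had 8 loci without a symbol higher and 271 lower, of 2472. Over all loci 0.253% were higher and 2.55% lower, and over single-gene loci 0.255% and 0.868%. WT against the library labelled P had 186 higher and 56 lower, of 2957, or 6.29% and 1.89%. Over all loci the shares were 5.98% and 1.83%, and over single-gene loci 6.13% and 1.85%. At the floor of 1 the WT comparison thus gave shares close to those of genes, and the MP comparison a larger share of lower loci. Of the 2472 loci kept for MP against P, 2382 were at 1 or more in P and 1506 in MP. They entered mainly through P, so a lower level in MP is partly built in, and these shares are a description. At the floor of 5, WT against the library labelled P had 10.1% of loci without a symbol higher and 2.32% lower. Single-gene loci then had 4.33% and 1.27%, and all loci 4.34% and 1.28%.

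**Figure D3:**
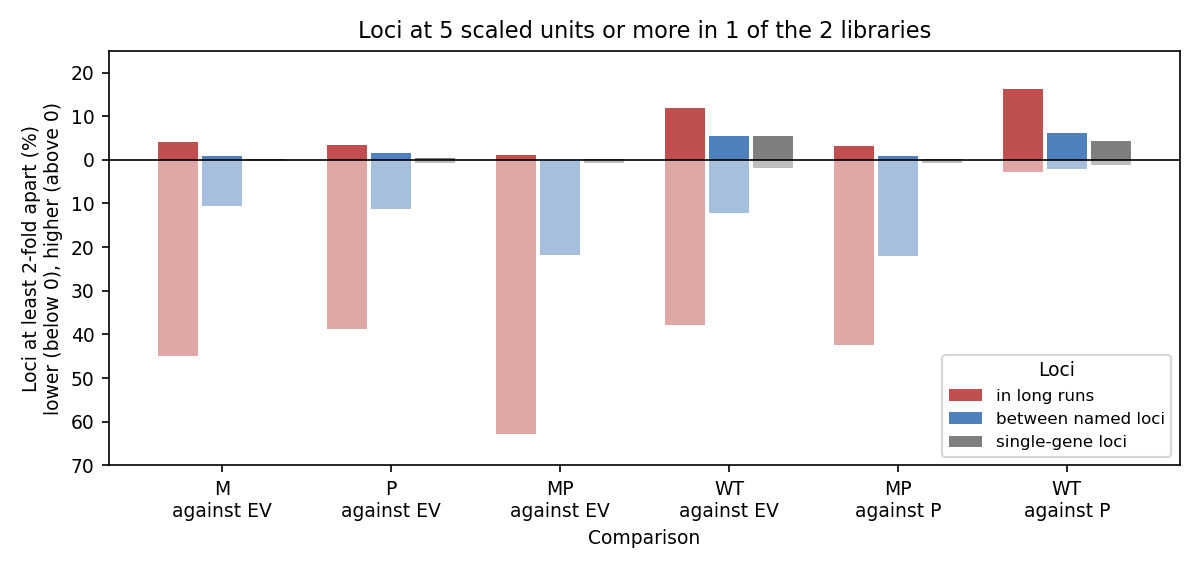
Share of loci at least 2-fold higher (dark bars, above 0) or lower (pale bars, below 0) in 6 comparisons, in percent of loci at 5 scaled units or more in 1 of the 2 libraries, for loci without a symbol in long runs, those between named loci and single-gene loci. In MP against P, 42.5% of the long-run loci, 22.0% of those between named loci and 0.614% of single-gene loci were lower, while WT against P had more higher than lower loci of each kind. Of the 127 long-run loci kept in MP against P, 119 were at 5 or more in P and 65 in MP. A lower level in MP is thus partly built in.

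Both libraries with added Meis1 had lower levels than their counterparts without it at most of the long-run loci well above 0. Of the 53 long-run loci well above 0, 38 were lower in M than in EV and 40 lower in the library labelled MP than in that labelled P, 32 of them in both. At least 2-fold lower were 15 of 53 in M, with 0 higher, and 13 in MP, with 1 higher, and 12 were 2-fold lower in both. The median log2 ratios were -0.26 and -0.48. The 102 between named loci had medians of 0.02 and 0.10. Of the 7991 single-gene loci at the same limit, 1 was 2-fold lower and 4 higher in M against EV. In the library labelled MP against that labelled P, 6 of them were lower and 5 higher. WT against the library labelled MP had 14 of the 53 long-run loci 2-fold higher and 1 lower. Libraries alike in added Meis1 also differed at the 53. The library labelled MP had 10 2-fold higher and 1 lower than M, and WT had 8 higher and 4 lower than EV. Each comparison is 1 library against 1, and the loci are not replicates. Levels of P, MP and WT had a part in choosing these loci, but those of EV and M did not.

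The 5 lowest loci in M against EV among those at 5 or more in either were all in long runs. XLOC_017161 stood at 3.78 in M against 170 in EV, while P, MP and WT held 99.8, 43.1 and 42.0. XLOC_003911 stood at 7.55 in M and 0 in MP, against 199, 179 and 130 in EV, P and WT. XLOC_026392 stood at 25.5 and 0 in M and MP, against 501, 719 and 7387 in EV, P and WT. XLOC_052258 stood at 0.132 in M and 0 in MP, against 22.2, 9.55 and 3.37 in EV, P and WT. At these last 3 loci the 2 lowest libraries were M and MP, but a low level in M was a condition of the choice. At XLOC_017161 MP lay above WT. The remaining locus was XLOC_038679, given above, which was listed at 0 in P as well as in M and MP.

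In the opposite direction, the highest loci in M against EV were lower still in the other libraries. XLOC_031722, between Chmp4c and Ralyl, stood at 9.42 in M, 0.290 in EV and 0 in the other 3. XLOC_013712 stood at 6.34 in M, 0.867 in EV and under 0.5 in the rest. XLOC_046473, XLOC_046855 and XLOC_001608 stood between 5.36 and 7.27 in M and were listed at 0 in P, MP and WT. All 5 were thus high in M alone and not in the library labelled MP, which shares the added Meis1 by label.

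Loci higher in the library labelled MP than in that labelled P did not separate by added Meis1. XLOC_001857 stood at 35.6, 33.9 and 30.0 in EV, M and MP, against 12.5 and 10.9 in P and WT. XLOC_023641 stood at 9.05, 7.37 and 8.69 in EV, M and MP, and at 2.59 and 2.13 in P and WT. XLOC_057720 had the same pattern, between 5.97 and 7.0 in EV, M and MP and at 2.31 and 2.08 in P and WT. XLOC_037496, between Lrrc38 and Pramel1, stood at 7.77, 10.2 and 11.7 in EV, M and MP, and at 3.86 and 5.06 in P and WT. XLOC_057860 was highest in EV, at 229, then M (87.3), MP (18.5), P (3.97) and WT (1.87). In all 5, EV, M and MP lay above P and WT.

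Lower levels in the library labelled MP than in that labelled P were also seen at moderate loci, and in part at genes. Between named loci, 549 loci at 2 to 5 units had medians of 3.28, 2.29 and 3.22 in P, MP and WT, with a median log2 of MP over P of -0.33. The 231 long-run loci of that band had -0.48 and the 2018 single-gene loci -0.17. At 5 to 10 units the medians were 0.00 for 123 loci between named loci, -0.78 for 54 in long runs and -0.05 for 3100 single-gene loci. At 10 to 20 units they were 0.12 for 22 loci between named loci, -0.49 for 14 in long runs and 0.11 for 5486 single-gene loci. MP was not held to the bands: the 54 long-run loci at 5 to 10 units had medians of 7.82, 3.86 and 7.71 in P, MP and WT. Such a choice favours lower levels in MP, so these medians are a description. The part that level or depth plays in the lower MP levels was not tested.

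Few loci were on or off in WT alone. On in WT alone, at 5 or more in WT and under 1 in each other library, were 9 loci without a symbol, 96 single-gene loci, together 0.175% of loci of both kinds. Off in WT alone, under 1 in WT and at 5 or more in the other 4, were 0 loci without a symbol, 25 single-gene loci, together 0.0415%. As a share of loci of their kind, the 9 were 0.0241% and the 96 were 0.419%. Of the 9, 6 lay between named loci and 3 in long runs.

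XLOC_053759, described above, had the highest WT level of the 9. XLOC_001212 stood at 7.63 in WT and at 0 in the other 4. XLOC_009156, between Ywhaq, a 14-3-3 protein gene, and 9030624G23Rik, stood at 6.40 in WT and between 0.341 and 0.585 elsewhere. XLOC_023053, between Fbxl17, an F-box gene, and Pja2, a ubiquitin ligase gene, stood at 6.23 in WT and close below the limit of 1 in EV (0.989) and P (0.975). The remaining 5, XLOC_009506, XLOC_056678, XLOC_009622, XLOC_030063 and XLOC_014910, stood between 5.15 and 5.74 in WT, close to the limit of 5, and at 0.666 or less elsewhere.

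**Figure D4:**
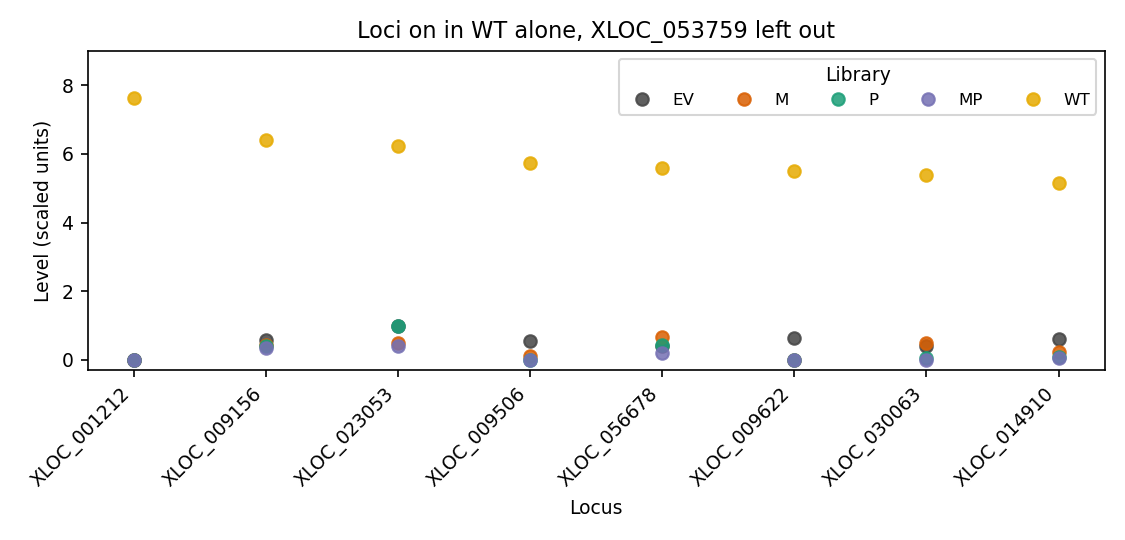
Level in scaled units of 8 of the 9 loci without a symbol on in WT alone, with a point for each of the 5 libraries; XLOC_053759, at 88986 in WT, is left out. WT points lie between 5.15 and 7.63 and all others under 1.

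At the low end of WT against the library labelled P, XLOC_002781, between 9230105E05Rik and 4921513I03Rik, stood at 0.484 in WT and between 4.13 and 5.09 in the other 4. The 4 Prep1-hypomorphic lines lay close together there. XLOC_013610, between Klhl1 and Dach1, a transcription factor gene, stood at 1.05 in WT and between 3.90 (MP) and 9.74 (EV) elsewhere. XLOC_023802, in a long run, stood at 2.10 in WT and between 5.56 and 14.2 elsewhere. At these 3 loci WT was the lowest library. In the other 2 of the 5 lowest, XLOC_035070 and XLOC_052258, it was MP (0.832 and 0) that was lower than WT (1.5 and 3.37), and at XLOC_052258 also M.

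A single locus parted P, MP and WT from EV and M upward. XLOC_009670, in a long run, stood at 7.45, 6.28 and 21.1 in P, MP and WT, against 0 and 0.152 in EV and M. No single-gene locus did so, and over both kinds the share was 0.00166%. In the reverse direction, on in EV and M and off in the other 3, stood 13 loci without a symbol and 1 single-gene locus, together 0.0233%. XLOC_001583 led them at 894 in EV, 1223 in M and 0 in the other 3. The next, XLOC_031704, stood at 12.9 in EV, 16.5 in M, 0.549 in WT and 0 in P and MP. XLOC_011112 and XLOC_009963 stood between 7.71 and 13.3 in EV and M and at 0 in the rest. XLOC_061001 stood at 11.2 and 8.51 in EV and M and at 0.129 or less in the rest.

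Loci between named loci were next set beside the genes that flank them in number, among those with flanking genes in order and both at 1 or more in WT or P. Across 706 such loci, the log2 ratio of WT over the library labelled P had Spearman's rho of 0.12 with that of the preceding gene, and across 679 loci 0.12 with that of the following gene. Between 6751 pairs of adjacent single-gene loci rho was 0.16. Of 50 loci 2-fold apart, 12 (24%) had a preceding gene 2-fold apart in the same direction. For following genes it was 7 of 46 (15.2%), and for adjacent single-gene loci 53 of 473 (11.2%). Some of the loci share a neighbour, and genes on the same chromosome are not independent.

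**Figure D5:**
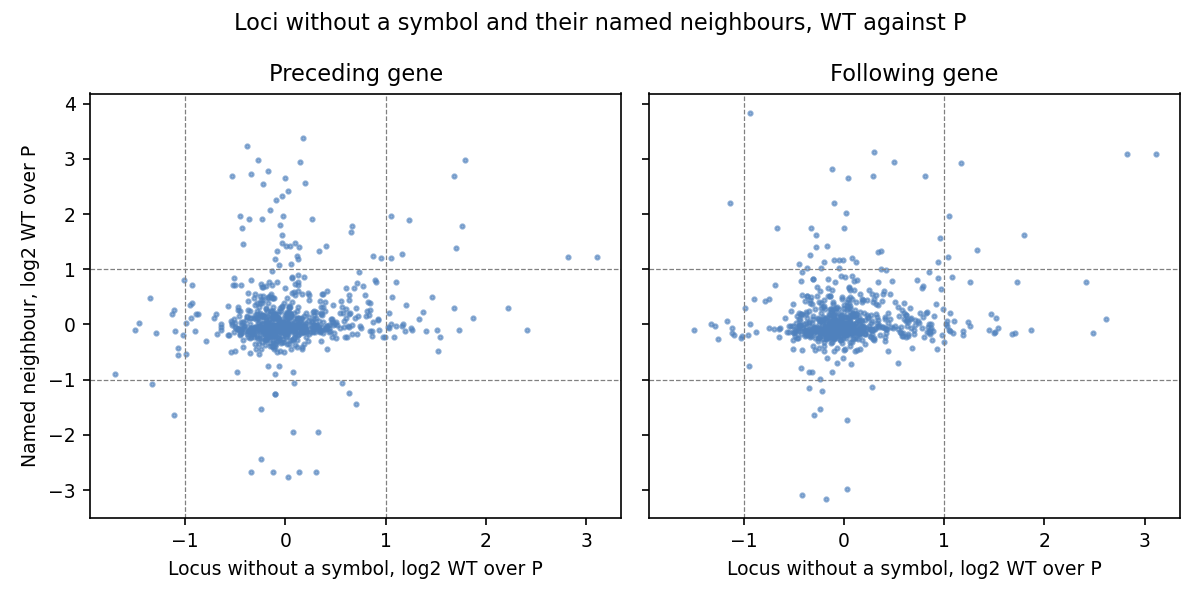
Difference between WT and the library labelled P, as log2((level + 1)/(level + 1)), at loci without a symbol between named loci (x axis) and at their preceding (left, 706 points) or following (right, 679 points) single-gene locus (y axis). Dashed lines mark 2-fold, and 12 points on the left and 7 on the right lie beyond 2-fold on both axes in the same direction.

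Pairs of locus and gene that differed together were found beside signalling and adhesion genes. XLOC_020673 stood at 6.18 in WT and between 0.865 and 1.82 elsewhere, and its preceding gene Heg1, a membrane glycoprotein gene of vessel and heart development, at 8.83 and between 1.49 and 2.62. XLOC_028855, between Mpped2 and the potassium channel gene Kcna4, stood at 2.90 in WT and at most 0.479 elsewhere. Mpped2 stood at 10.1 in WT and at most 0.778 elsewhere, but Kcna4 stood at 6.88 in WT beside 6.52 in EV and 6.89 in M.

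XLOC_055771 stood at 5.19 in WT and between 1.82 and 2.02 elsewhere, and its preceding gene Itga9, which encodes an integrin alpha chain, at 4.28 and at most 0.713. XLOC_042676, after Tac1, the gene of the substance P precursor, stood at 2.21 in WT and Tac1 at 5.48, with both under 0.5 in the other 4 libraries. XLOC_039291 stood at 1.85 in WT, 1.33 in M and between 0.270 and 0.800 in EV, P and MP. Its following gene Sema3e, a secreted guidance factor, stood at 8.30 in WT and between 0.222 and 0.621 elsewhere. In these 3 cases WT was again the highest library for both locus and gene.

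The direction was reversed at 2 of the loci. XLOC_004675 stood at 0.476 in WT, 0.834 in MP, 1.08 in M, 2.20 in P and 2.26 in EV. Its preceding gene Lif, a cytokine gene, stood at 3.26 in WT and between 9.82 and 12.3 in the 4 hypomorphic lines. The locus was thus also low in M and MP, where Lif was not. XLOC_027315 stood at 1.27 in WT and between 3.87 and 4.68 elsewhere, and its preceding gene Lipo1, a lipase family gene, at 3.31 and between 7.04 and 8.08.

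The larger share beside preceding genes did not recur in the other comparisons to the same extent. In WT against EV, 13 of 128 (10.2%) preceding and 9 of 134 (6.72%) following genes were 2-fold apart the same way, against 13.6% of adjacent single-gene loci. In WT against the library labelled MP the shares were 15.2% and 8.60%, against 12.6%. In the library labelled MP against that labelled P, 1 of 44 loci 2-fold apart had a preceding gene 2-fold apart the same way, and 1 of 46 a following gene, against 3 of 69 (4.35%) for adjacent single-gene loci. In M against EV the counts were 0 of 52 and 2 of 44, against 3 of 49.

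Loci numbered next to genes of the TALE, Hox and AP-1 families were looked up in 24 single-gene loci. They gave 18 cases of a locus without a symbol next to a listed gene, of which 8 reached 1 in P, MP or WT. None reached 5. XLOC_005786, between Etaa1 and Meis1, stood at 1.72 and 1.44 in M and MP, and at 3.15, 4.0 and 3.35 in EV, P and WT. Its 2 lowest libraries, M and MP, were those with the highest Meis1, but lower levels there were not particular to this locus. Loci between named loci at 1 or more in either library had a median log2 ratio of -0.29 for M against EV. For the library labelled MP against that labelled P it was -0.36. A link with Meis1 was not tested. XLOC_030120, next to Meis2, stood highest in WT at 3.67 and lowest in MP at 1.19.

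At the Hox clusters, which set position along the body axis, levels were low. XLOC_005364, between Hoxb13 and Hoxb1, stood between 0.889 in M and 1.49 in P, and counts under both genes. XLOC_005369, after Hoxb1, stood between 0.457 in MP and 1.23 in EV. XLOC_015229, before Hoxc13, stood between 1.09 in MP and 2.46 in EV. XLOC_037987, next to Jun, an AP-1 subunit gene, stood between 0.236 in MP and 1.31 in WT. MP was the lowest library at 3 of these 4 loci, and it also had the lowest median over all loci between named loci, at 0.300.

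The authors' own calls were made on values without the scaling used above. For M against EV, the authors' deposited table called 90 loci without a symbol higher and 1329 lower, of 23825 tested, beside 4.08% and 4.49% of all loci tested. Of single-gene loci the authors' deposited table called 1004 higher and 3 lower. Of the 1329 called lower in the authors' deposited table, 717 were listed at 0 in P, MP and WT, and 11 reached 5 in EV, with a median of 1.30 in EV and 0.00217 in M. In the authors' deposited table for P, 2 were called higher and 22770 lower (0.00892% and 98.9% of all loci tested). The authors' deposited table for MP called 0 and 21588 (0.00314% and 99.1%), and the authors' deposited table for WT 7 and 23039 (0.0576% and 97.4%).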

How the data were processed

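RNA-seq of total RNA gave 5 libraries, 1 per group. The authors deposited 4 tables, each of EV against 1 other library, with FPKM values per locus, and p-value and q-value columns of their own 1-against-1 test, per the file headers. TopHat, Cufflinks, Cuffdiff and build mm9 are named in the submitters' processing notes. Versions, normalization, strand and read depth are not given in the sources used here.

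Tables were joined by locus number, with EV from the M table. Each library was scaled to an upper quartile of 10 over the 22338 single-gene loci that reached 1 FPKM somewhere. Differences are log2((level + 1)/(level + 1)), with a pseudocount of 1, a floor of 1 in 1 of the 2 libraries and a threshold of 2-fold. The counting was tested on simulated data. With 1 library per group there is no test. Values of 0 are listed values and may be failed estimates.

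The members, gene lists and limits were chosen with earlier results of these data known. Planned distances and spans were replaced by order of locus number, because coordinates and lengths were not used here. Order was checked with RefSeq positions (GRCm38) and GENCODE M21 strands. No positions and no sequences are printed, and loci on unplaced or mitochondrial sequence were not set apart. Named loci were the 10 highest by the lowest of their P, MP and WT levels. Also named were the 5 (for P, MP and WT against EV, 3) highest and lowest ratios per comparison at 5 or more in either library, those on or off in WT alone, up to 5 each way parting P, MP and WT from EV and M, and those next to listed genes. Some of these are not reported here. Other named loci, all flanking genes, and the division by runs of 100 or more, were chosen after values or numbering were seen. Alternatives changed the scaling, pseudocount, floor and on level. Python 3.11.15, pandas 2.3.3 and NumPy 2.4.6 were used.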

Additional observations from a re-analysis of the deposited data

How the results depend on the processing

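Of 52 alternative values, 29 stayed within 1.5 times the count reported and 23 did not. Without scaling, 18231 loci without a symbol were 2-fold apart in M against EV, 37057 in P, 37054 in MP and 37023 in WT against EV, and 450 in MP against P. A pseudocount of 0.1 gave 11494 in M against EV, 809 in MP against P and 660 in WT against P. A floor of 5 gave 123, 119, 164 and 154 for M, P, MP and WT against EV, 105 for MP against P and 48 for WT against P. With on at 3, 341 loci were well above 0 in P, MP and WT, 21 were on and 1 was off in WT alone, and 51 were on in EV and M and off in the rest. With on at 10 these were 45 well above 0, 1 on in WT alone and 2 on in EV and M alone, and 0 parted P, MP and WT from EV and M upward. Asking for 5 or more in P and WT, an alternative chosen after seeing the data, gave 251. The cause was not tested, other than that a higher floor or limit keeps fewer loci. Scaling to the median moved ratios by at most 0.015 log2. Removing the floor, using each table's own EV and setting runs at 20 or 500 loci (both of these chosen after seeing the data) stayed within 1.5 times. No paired analysis was possible because each group had 1 library, and for that reason no library could be left out of a group. Alternatives by span and distance were not run. Read depth is unknown, so whether a faint locus differs beyond counting error cannot be given.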

Other observations

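The commonest ratio between libraries at loci above 0 in both differed between the kinds of locus. In long runs it was 163 for M over MP, held by 312 of 10362 loci within a bin of 1%, with 154 loci in the next bin, and lay 3.67 times above the ratio of the libraries' upper quartiles. Between named loci no such peak was seen: the commonest and the next bin held 36 and 35 of 3258 loci. For WT over MP the long-run peak was at 0.882, with 254 loci in its bin and 176 in the next. For P over MP (179 and 177 loci) and EV over MP (71 and 71) the long runs showed no single peak.

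The deposited status of the 29 loci at 100 scaled units or more was OK for 28 in each of the authors' deposited tables of M, P and MP, and for all 29 in the authors' deposited table of WT.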
